A study of Mus musculus with 9 samples.

Results

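The genes described here are the mouse Fc receptors, which bind the constant (Fc) part of antibodies. The list of 7 genes held the IgG receptors Fcgr1, Fcgr2b, Fcgr3 and Fcgr4, the signalling chain Fcer1g, the neonatal receptor Fcgrt and the low-affinity IgE receptor Fcer2a. Each was represented by the probe set (a group of array probes read as one value) that named this gene alone. Of the 7 genes, 6 had one, and each of these had only 1, so no choice between probe sets arose. Fcgrt was not analysed here. These 6 were among 19938 genes measured in this way.

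RNA of 3 groups of cells was read on Affymetrix mouse gene arrays, 3 per group and 9 in all. All cells were dendritic cells grown over 8 days from bone marrow progenitors with GM-CSF (4% supernatant). For the first 4 days SCF at 5 ng/ml was added, and for the other 4 GM-CSF was given alone. At the progenitor stage the cells had received cytokines at 20 ng/ml. The knockdown LPS group (KD LPS) carried a retroviral vector, pSir-delta U6CHisD, with a hairpin against JmjD2d, was selected in 2 mM histidinol and received LPS, the bacterial lipopolysaccharide sensed by Toll-like receptor 4, at 100 ng/ml for 4 h. The wild-type LPS group (WT LPS) was untransduced and received the same LPS treatment. The wild-type unstimulated group (WT unstimulated) was untransduced and received none. JmjD2d is the histone H3 lysine 9 demethylase encoded by Kdm4d. No control hairpin and no unstimulated knockdown cells were analysed here, so an effect of the knockdown and one of infection and selection cannot be told apart, and the knockdown cells' own response to LPS cannot be given. The series asks which genes that respond to LPS depend on JmjD2d.

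Within a group, the correlation between arrays over all genes was 0.985 to 0.997. Kdm4d had log2 values of 7.43, 7.11 and 7.40 in KD LPS cells, against 7.79, 7.54 and 7.74 in WT LPS cells (limma adjusted p = 0.278, n = 3 each). These groups did not overlap, although the difference did not pass the test. Lower values without overlap were found for 8.38% of all genes in this comparison. Kdm4d was read near 7.25, the median of all deposited probe sets. WT unstimulated cells had 7.24, 7.65 and 7.62, which overlapped the knockdown values, with a log2 difference of -0.19 for KD LPS minus WT unstimulated cells (limma adjusted p = 0.503). Of 12 dendritic cell markers, 11 had a mean above 7.25, the median of all deposited probe sets, and so had 12 of 12 measured macrophage markers. Neutrophil markers were lowest on the arrays numbered 2, though in WT unstimulated cells array 3 lay near array 2. The mean log2 level of 12 neutrophil markers on arrays 1, 2 and 3 was 9.98, 8.28 and 9.84 in KD LPS cells, 10.59, 9.05 and 9.98 in WT LPS cells, and 10.01, 8.65 and 8.97 in WT unstimulated cells, lowest on array 2 in each group. Ltf, the neutrophil granule protein lactoferrin, had 7.32 on array 2 of KD LPS cells, against 11.21 and 10.84 on the others of that group. Of the same list, Cxcr2 (7.05, 8.97 and 7.2) and Prtn3 (7.56, 7.88 and 7.77) were highest on that array, and the other markers were lowest. Dendritic cell markers too had their lowest mean on array 2 of each group. It was 8.78 in KD LPS cells, near 8.89 on array 3. The macrophage marker mean was 11.7, 10.94 and 11.9 on arrays 1, 2 and 3 of KD LPS cells. It was also lowest on array 2 in WT LPS cells, but not in WT unstimulated cells (10.93, 10.94 and 11.35). Of these macrophage markers in KD LPS cells, C1qb had 9.59 on array 2, against 12.77 and 12.87. Cd68, Mertk and Spic were highest there. The arrays numbered 2 also held the highest Fcgr4 values of KD LPS and of WT LPS cells. They held the lowest Fcgr1 value of KD LPS and the highest of WT LPS cells. The part of all these markers in those values was not tested. Fewer cells of a type and less RNA per cell cannot be told apart in such bulk samples.

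IgG receptors fall into activating and inhibitory types. Fcgr1 (CD64, the high-affinity IgG receptor), Fcgr3 (CD16) and Fcgr4 activate the cell through Fcer1g, the common gamma chain, whose immunoreceptor tyrosine-based activation motif (ITAM) recruits the kinase Syk. Fcgr2b (CD32B) carries an inhibitory motif that recruits the lipid phosphatase SHIP-1, encoded by Inpp5d, and is the only inhibitory classical IgG receptor of the mouse. On dendritic cells the balance of both types governs uptake of immune complexes and maturation in response to them. Fcgrt, which pairs with B2m, recycles IgG from endosomes, and Fcer2a (CD23) is a lectin-type IgE receptor best known from B cells.

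Fcgr2b, Fcgr4, Fcgr3 and Fcer1g lie near each other on chromosome 1. On assembly GRCm38.p6 the first 3 lie within 105.4 kb, with Fcgr2b at chr1:170960558-170976071, Fcgr4 at chr1:171018926-171029761 and Fcgr3 at chr1:171051169-171065915, and Fcer1g follows at chr1:171229572-171234349. Fcgr1 is at chr3:96282909-96293969 and Fcer2a at chr8:3680280-3694174. The promoters of the 3 activating IgG receptors are shown because these genes had the widest ranges of group means, up to 0.87 log2 units. Each RefSeq window (GRCm38.p6) holds 250 bases before and 50 after a listed start of the gene (the first listed of 2 for Fcgr3), read 5′ to 3′ on the gene's strand, and capitals mark the motif matches named below. The windows are chr3:96293920-96294219 (minus strand) for Fcgr1, chr1:171059354-171059653 (minus strand) for Fcgr3 and chr1:171018676-171018975 (plus strand) for Fcgr4.
Fcgr1: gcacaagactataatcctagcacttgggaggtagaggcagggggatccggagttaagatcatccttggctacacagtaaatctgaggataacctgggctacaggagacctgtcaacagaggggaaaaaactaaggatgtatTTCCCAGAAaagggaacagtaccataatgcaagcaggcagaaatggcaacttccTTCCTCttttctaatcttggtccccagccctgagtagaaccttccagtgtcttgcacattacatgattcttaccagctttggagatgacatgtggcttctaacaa
Fcgr3: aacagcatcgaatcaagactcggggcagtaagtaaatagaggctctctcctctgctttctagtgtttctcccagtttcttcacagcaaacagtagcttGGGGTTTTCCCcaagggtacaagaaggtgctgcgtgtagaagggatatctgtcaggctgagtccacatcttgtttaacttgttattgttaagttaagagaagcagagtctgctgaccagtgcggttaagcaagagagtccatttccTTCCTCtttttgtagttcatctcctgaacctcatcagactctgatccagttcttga
Fcgr4: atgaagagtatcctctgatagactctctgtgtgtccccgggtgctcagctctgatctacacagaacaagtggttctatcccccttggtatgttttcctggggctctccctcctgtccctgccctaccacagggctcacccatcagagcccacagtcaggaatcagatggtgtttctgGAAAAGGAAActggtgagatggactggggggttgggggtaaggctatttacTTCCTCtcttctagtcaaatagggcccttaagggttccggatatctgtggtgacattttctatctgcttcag

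All 3 windows held GAGGAA, the core bound by PU.1, the transcription factor that governs myeloid genes, read on the opposite strand. It lay at bases -55 to -50 in Fcgr1, -6 to -1 in Fcgr3 and -22 to -17 in Fcgr4, counted from the listed start of each window. For Fcgr3 this listed start lies inside the gene interval given above, not at its end. On either strand 28.3% of the 32851 promoter windows held it. Fcgr1 also held TTCNNNGAA, the site of STAT factors activated by interferon-gamma, at -109 to -101, which 8.3% of windows held. Fcgr4 held GAAA, any 2 bases and GAAA, the core of the interferon-stimulated response element, at -73 to -64 (3.44% of windows). Fcgr3 held GGG, any 2 bases, TT, any base and CC, a loose form of the NF-kB site, as 2 overlapping matches between -152 and -142 (4.79% of windows). A C/EBP form, TTNNGCAAT (2.18% of windows), and an AP-1 form, TGANTCA (7.81% of windows), were searched on both strands as well and matched none of the 3. The listed windows of Fcgr2b and Fcer1g held none of the 6 motifs. A match describes the letters and does not show that a factor bound there.

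In wild-type cells LPS left the Fc receptor genes within 1.35-fold of their unstimulated means, and 0 of 6 were called by limma at an adjusted p under 0.05, against 10.9% of all 19938 genes. At an unadjusted p under 0.05 there was 1, Fcgr3, against 26.3% of all genes. The median log2 difference of the 6 genes was -0.12, beside 0.04 over all genes. Fcgr3 came nearest to a call and was 73.8% of its unstimulated mean.

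After LPS the knockdown cells differed from wild-type cells by no more than 1.62-fold in any of the 6 genes. Again 0 of 6 were called by limma, against 0.762% of all genes, and 1, Fcgr2b, had an unadjusted p under 0.05, against 13.1% of all genes. The median log2 difference of the 6 genes was -0.09, beside -0.03 over all genes. Fcgr4 had the highest positive difference, 0.69, and Fcgr1 the lowest, -0.57.

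Between KD LPS cells and WT unstimulated cells 1 of 6 was called, Fcgr3, which was lower, against 10.9% of all genes called in either direction and 6.64% called lower. In 3 of 6, Fcgr1, Fcgr2b and Fcgr3, the groups did not overlap, each lower in KD LPS cells, against 27.3% of all genes without overlap in either direction. The median of the 6 differences was -0.06, beside 0.01 over all genes. This comparison shares arrays with both others.

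**Figure D1:**
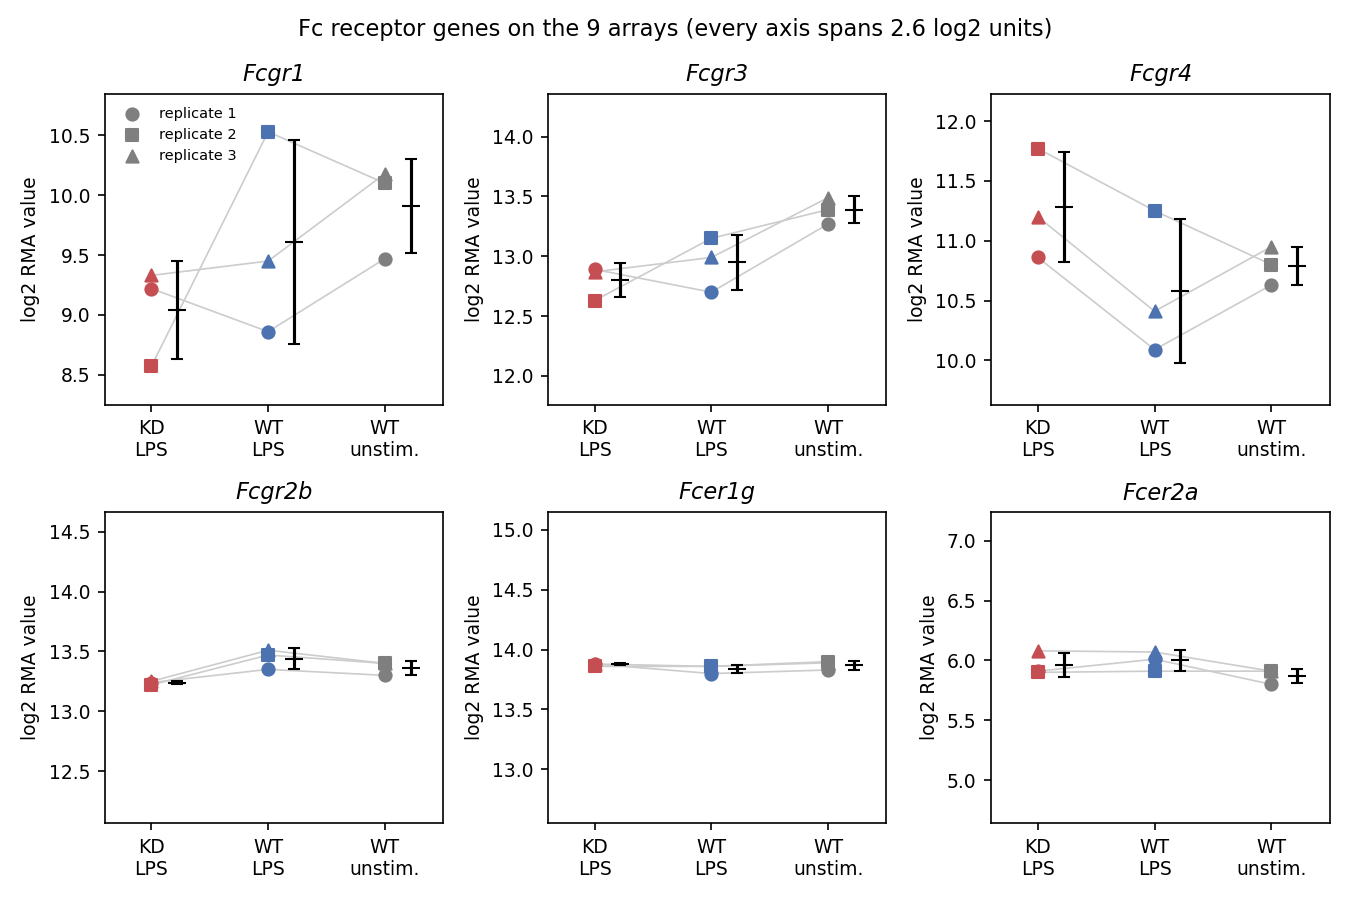
Log2 RMA values (vertical axis, 2.6 log2 units in every panel) of the 6 Fc receptor genes on the 9 arrays in KD LPS, WT LPS and WT unstimulated cells. Circles, squares and triangles are replicates 1, 2 and 3, grey lines join arrays of the same number, and black bars give mean ± SD (n = 3): Fcgr3 is highest in the 3 unstimulated arrays, Fcgr1 and Fcgr4 scatter widely within a group, and Fcer1g stays between 13.80 and 13.90.

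Fcgr3, the low-affinity activating IgG receptor, had log2 values of 12.70, 13.15 and 12.99 in WT LPS cells, against 13.27, 13.39 and 13.49 in WT unstimulated cells. All 3 LPS arrays lay below all 3 unstimulated ones. The unstimulated values were near the top of the scale, where the highest value of any probe set was 14.66. The log2 difference was -0.44 (SE 0.13, 95% confidence interval -0.73 to -0.15, n = 3 against 3, limma adjusted p = 0.0619) and did not pass the test. Pairs of arrays with the same number differed by -0.57, -0.24 and -0.50, where the lack of overlap already fixed the sign. Groups without overlap and lower after LPS were found for 16.5% of all genes. Without WT LPS replicate 2 the difference was -0.54 (limma adjusted p = 0.0248), past the threshold, and over the alternative fits on all 9 or the 6 compared arrays, or without those numbered 2, it ran from -0.54 to -0.42.

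In KD LPS cells Fcgr3 had log2 values of 12.89, 12.63 and 12.87. These overlapped the WT LPS values and lay below the unstimulated ones. The difference from WT LPS cells was -0.15 (95% confidence interval -0.44 to 0.14, limma adjusted p = 0.657), with a change of sign between pairs (0.18, -0.52 and -0.12). The difference from WT unstimulated cells was -0.59, a 1.5-fold lower level (SE 0.13, 95% confidence interval -0.88 to -0.30, limma adjusted p = 0.0212). Leaving out 1 array ended this call in 3 of 9 cases: without KD LPS replicate 2 (-0.51, adjusted p = 0.0518), without KD LPS replicate 3 (-0.63, adjusted p = 0.0579) and without WT unstimulated replicate 3 (-0.53, adjusted p = 0.0838).

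Fcgr4, the activating receptor for IgG2a and IgG2b, had log2 values of 10.86, 11.77 and 11.20 in KD LPS cells, against 10.09, 11.25 and 10.41 in WT LPS cells. Each knockdown array was higher than the WT LPS array of the same number, by 0.77, 0.52 and 0.79, while the groups as a whole overlapped. Without the 3 arrays numbered 2 the difference was 0.78 (limma adjusted p = 0.0791). In all arrays the log2 difference was 0.69 (SE 0.31, 95% confidence interval -0.023 to 1.41, limma adjusted p = 0.399, and 0.133 with the replicate number as a block), so a change was not shown. WT unstimulated cells had 10.63, 10.80 and 10.95. WT LPS cells differed from these by -0.21 (95% confidence interval -0.93 to 0.50, limma adjusted p = 0.684), with replicate 2 above its unstimulated partner by 0.45 and the other two below by -0.54 each. The pooled within-group SD of Fcgr4 was 0.45, larger than that of 96.5% of genes.

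Fcgr1, the high-affinity receptor, had log2 values of 9.22, 8.57 and 9.33 in KD LPS cells, against 8.86, 10.53 and 9.45 in WT LPS cells. Replicate 2 held the lowest of the knockdown values and the highest of the wild-type values, and the groups overlapped. The log2 difference was -0.57 (SE 0.41, 95% confidence interval -1.51 to 0.37, limma adjusted p = 0.606), made of pair differences of 0.36, -1.96 and -0.12. Without WT LPS replicate 2 it was -0.11, and without the 3 arrays numbered 2 it was 0.12 (limma adjusted p = 0.846). The pooled within-group SD, 0.59, exceeded that of 98.2% of genes.

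WT unstimulated cells had Fcgr1 log2 values of 9.47, 10.10 and 10.18. WT LPS cells differed from them by -0.30 (95% confidence interval -1.24 to 0.64, limma adjusted p = 0.659). Without WT LPS replicate 1 this difference was 0.08, and without WT LPS replicate 2 it was -0.76, both short of the threshold. All 3 KD LPS values were below all 3 unstimulated values, by -0.87 on average (95% confidence interval -1.81 to 0.07, limma adjusted p = 0.257).

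Fcer1g, the gamma chain that the activating receptors need, had log2 values of 13.88, 13.86 and 13.88 in KD LPS cells, 13.80, 13.86 and 13.86 in WT LPS cells, and 13.83, 13.90 and 13.89 in WT unstimulated cells. The 9 arrays thus lay within a narrow band, and only 1.34% of genes had a smaller within-group SD. The knockdown difference after LPS was 0.035 (95% confidence interval -0.082 to 0.15, limma adjusted p = 0.811). The LPS difference in wild-type cells was -0.031 (95% confidence interval -0.15 to 0.085, limma adjusted p = 0.714). The highest value of any probe set on the 9 arrays was 14.66, so Fcer1g was read near the top of the scale.

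Fcgr2b, the inhibitory receptor, had log2 values of 13.24, 13.22 and 13.25 in KD LPS cells, against 13.35, 13.47 and 13.51 in WT LPS cells. The knockdown values lay below all 6 wild-type values, since WT unstimulated cells had 13.30, 13.40 and 13.40. After LPS the log2 difference was -0.20, a level of 86.8% (SE 0.062, 95% confidence interval -0.35 to -0.062, limma adjusted p = 0.194), and it was not called. The pairs differed by -0.11, -0.25 and -0.26, where the lack of overlap already fixed the sign. Lower values without overlap were found for 8.38% of all genes in this comparison. The difference of WT LPS from WT unstimulated cells was 0.08 (95% confidence interval -0.062 to 0.22, limma adjusted p = 0.434), positive in 3 of 3 pairs. Fcgr2b too was read near the top of the scale.

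Fcer2a, the IgE receptor CD23, had log2 values of 5.91, 5.90 and 6.08 in KD LPS cells, 6.01, 5.91 and 6.07 in WT LPS cells, and 5.80, 5.91 and 5.91 in WT unstimulated cells. Every value was below 7.25, the median of all deposited probe sets, and no detection call was part of the files used here. Its differences were -0.036 between KD LPS and WT LPS cells (95% confidence interval -0.21 to 0.13) and 0.13 between WT LPS and WT unstimulated cells (95% confidence interval -0.044 to 0.30), with limma adjusted p of 0.869 and 0.316. Fcer1a, the ligand-binding chain of the high-affinity IgE receptor, also lay below that median on its own probe set, at 4.79 to 4.89 in KD LPS, 4.92 to 5.19 in WT LPS and 4.76 to 4.88 in WT unstimulated cells.

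**Figure D2:**
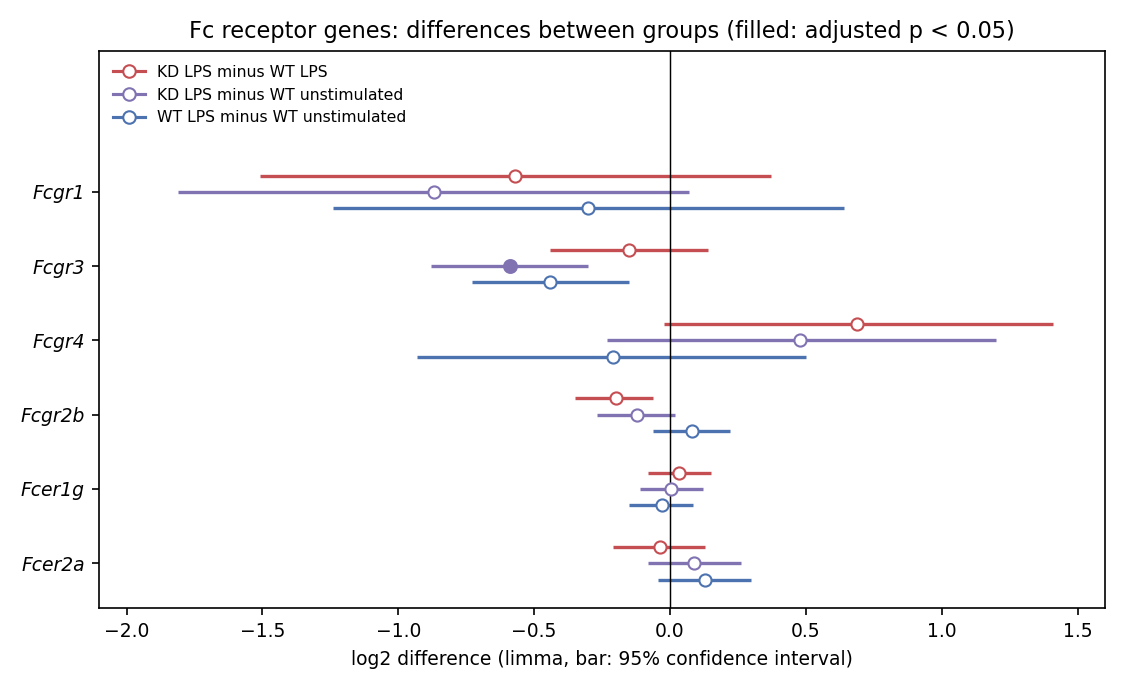
Log2 differences of the 6 Fc receptor genes (points) with 95% confidence intervals (bars) for KD LPS minus WT LPS, KD LPS minus WT unstimulated and WT LPS minus WT unstimulated. The filled point, Fcgr3 at -0.59 between KD LPS and WT unstimulated cells, is the only one with an adjusted p under 0.05, and the intervals of Fcgr1 and Fcgr4 are the widest.

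Levels of different probe sets cannot be set against each other, but their change within an array can. The measure assumes that both probe sets respond to RNA in the same proportion, which was not tested. Fcgr2b, Fcer1g and, in WT unstimulated cells, Fcgr3 were read near the top of the scale. Each activating chain was therefore taken as its log2 value minus that of Fcgr2b on the same array, counted from the mean of the WT unstimulated arrays and given without a test. For Fcgr3 this was -0.38, -0.61 and -0.40 in KD LPS cells, -0.67, -0.34 and -0.54 in WT LPS cells, and -0.05, -0.03 and 0.08 in WT unstimulated cells. Fcgr3 was thus lower relative to Fcgr2b on all 6 LPS arrays than on the 3 unstimulated ones, with no clear gap between knockdown and wild type.

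For Fcgr4 the same measure was 0.19, 1.11 and 0.51 in KD LPS cells, against -0.69, 0.35 and -0.53 in WT LPS cells and -0.10, -0.03 and 0.13 in WT unstimulated cells. The knockdown arrays overlapped the WT LPS arrays through WT LPS replicate 2 and lay above the unstimulated ones. For Fcgr1 it was -0.57, -1.21 and -0.47 in KD LPS cells, against -1.04, 0.51 and -0.61 in WT LPS cells and -0.38, 0.15 and 0.23 in WT unstimulated cells. For Fcer1g it was 0.13, 0.13 and 0.12 in KD LPS cells, against -0.05, -0.12 and -0.16 in WT LPS cells, where the Fcgr2b values were lower in the knockdown and the Fcer1g values overlapped. Fcgr4 minus Fcgr1, a pair chosen after its values were seen, was 0.76, 2.32 and 0.98 in KD LPS cells, against 0.35, -0.16 and 0.08 in WT LPS cells and 0.28, -0.18 and -0.10 in WT unstimulated cells. The 3 knockdown arrays were above all 6 wild-type arrays on this measure, but the mean of 1.35 leaned on replicate 2, neither gene was called (limma adjusted p = 0.399 for Fcgr4 and 0.606 for Fcgr1), and a pair chosen in this way supports no conclusion.

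**Figure D3:**
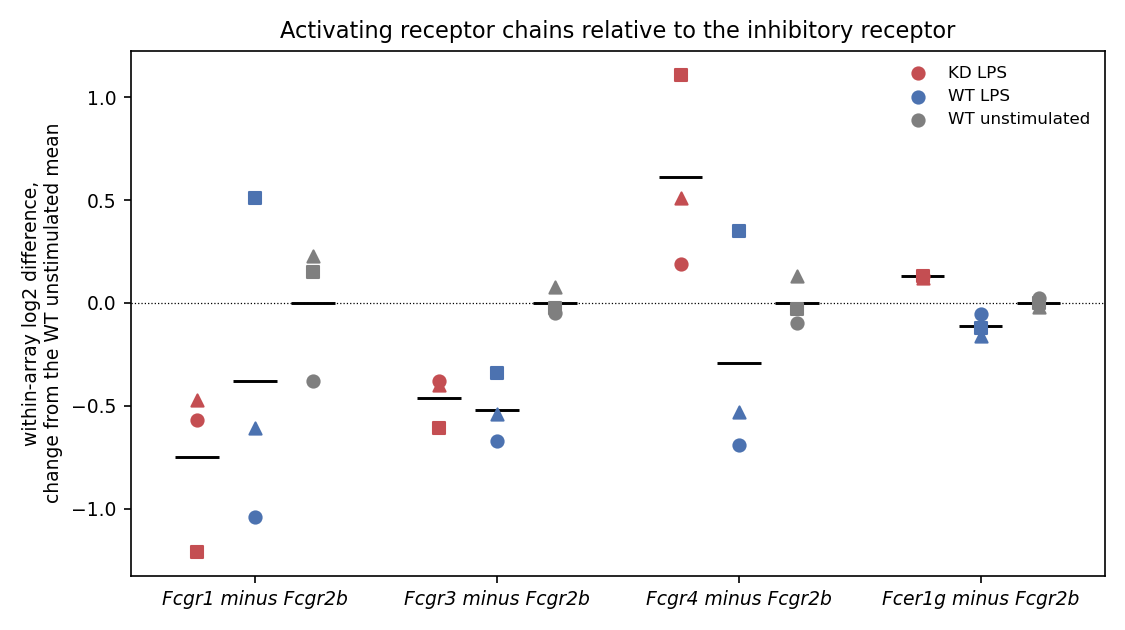
Log2 value of Fcgr1, Fcgr3, Fcgr4 or Fcer1g minus that of Fcgr2b on the same array, as the change from the WT unstimulated mean (vertical axis, log2 units), for KD LPS (red), WT LPS (blue) and WT unstimulated (grey) cells. Circles, squares and triangles are replicates 1, 2 and 3 and black lines are group means: Fcgr3 is at or below -0.34 on the 6 LPS arrays, and Fcgr4 is at or above 0.19 on the 3 knockdown arrays.

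The genes with the most similar profiles were found by the root mean square difference between log2 values, each gene centred on its own mean over the 9 arrays, among 18643 named genes. Nearest to Fcgr3 were Pdia4, a chaperone of the endoplasmic reticulum, Emb, a membrane glycoprotein, and Fes, a tyrosine kinase (0.07 to 0.09, against 0.28 for a flat profile). Nearest to Fcgr4 were Klra2, an inhibitory lectin-type receptor, Sfmbt2 and Prkar2b, a regulatory subunit of protein kinase A (0.16 to 0.17, against 0.47 for a flat profile). Nearest to Fcgr1 were Stab1, a scavenger receptor, Vps37b and Milr1, an inhibitory immunoglobulin-like receptor, but less closely (0.28 to 0.30, against 0.60).

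Lists of genes that work with Fc receptors were read in the same fits. The share over all genes includes dim ones, while most genes of each list, except the Fc-binding proteins, lay above 7.25. With only genes at or above 7.25 tested, 2365 were called for LPS in wild-type cells, out of fewer genes. The share among such genes was thus above 10.9%, and the lists were not set against genes of like level. Of 26 measured kinases and adaptors of activating signalling, 5 rose and 4 fell in wild-type cells after LPS, or 34.6% against 10.9% of all genes, with a median difference of -0.03. Syk, the kinase that binds the ITAM, had log2 values of 12.68, 12.43 and 12.80 in WT LPS cells, against 11.48, 11.99 and 11.56 in WT unstimulated cells. The groups were well apart, and Syk rose by 0.96 (SE 0.15, limma adjusted p = 0.00587). Lcp2, the adaptor SLP-76 downstream of Syk, rose by 0.84 (SE 0.095), and Malt1, a paracaspase that links ITAM signals to NF-kB, by 0.86 (SE 0.084). Card9, the adaptor that joins Syk to Malt1 and Bcl10, had a log2 difference of -0.73 (SE 0.099, limma adjusted p = 0.00398) and thus fell.

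Of 15 inhibitory signalling genes, 3 fell and none rose after LPS in wild-type cells (20.0% called, against 10.9% of all genes, median difference -0.03). The list also holds genes that are not downstream of Fcgr2b, such as the receptors Sirpa and Lilrb4a. Inpp5d, the phosphatase SHIP-1, had log2 values of 10.57, 11.16 and 10.76 in WT LPS cells, against 12.11, 11.75 and 12.14 in WT unstimulated cells. All LPS arrays were lower, with a log2 difference of -1.17 (SE 0.17, limma adjusted p = 0.00479). Dok3, an inhibitory adaptor, had a difference of -0.62 (SE 0.12) and Csk, a kinase that restrains Src-family kinases, one of -0.47 (SE 0.12), and Csk was no longer called with the replicate number as a block (adjusted p = 0.0607).

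Among 10 measured receptors that couple to Fcer1g or other ITAM chains and proteins near them, 1 rose and 1 fell after LPS (20.0%, against 10.9% of all genes, median -0.12). Clec4e (Mincle), an Fcer1g-coupled lectin, rose by 1.45 (SE 0.26, limma adjusted p = 0.012), and Trem2, which signals through Tyrobp, had a difference of -0.39 (SE 0.09, limma adjusted p = 0.0289). Tyrobp, the other ITAM chain of myeloid cells, had a difference of -0.17 (95% confidence interval -0.31 to -0.037, limma adjusted p = 0.105). Among 14 other antibody receptors and Fc-binding proteins 1 rose and 1 fell (14.3%, near the 10.9% of all genes, median 0.07). Trim21, the cytosolic IgG receptor and an interferon-inducible gene, rose by 1.72 (SE 0.23, limma adjusted p = 0.0038). Fcrla, an Fc receptor-like protein of B cells, had a difference of -0.72 (SE 0.19, limma adjusted p = 0.0478). Its means, 6.38 in WT LPS and 7.11 in WT unstimulated cells, were both below 7.25, the median of all probe sets.

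Of 10 genes of the neonatal receptor's trafficking route, 2 rose and 1 fell (30.0%, against 10.9% of all genes, median 0.05). B2m, the partner chain of Fcgrt, had a difference of -0.034 (limma adjusted p = 0.721), Rab11fip5, a recycling endosome adaptor, one of -1.12 (SE 0.21, limma adjusted p = 0.014), Rab5a, a GTPase of early endosomes, one of 0.27, and Eea1, its tethering partner, one of 0.35. Of 19 measured genes of phagocytosis and cross-presentation 4 rose and none fell (21.1%, against 10.9% of all genes, median 0.08). Rab20, an endosomal GTPase, rose by 1.51 (SE 0.20), and Ncf1, a subunit of the phagocyte oxidase, by 0.41 (SE 0.087). The other two were the peptide transporter genes Tap1 and Tap2. B2m is also in the list of other antibody receptors.

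In the comparison of KD LPS with WT LPS cells none of these 6 lists had a gene called by limma, where 0.762% of all genes were called, and list medians lay between -0.08 and -0.01. At an unadjusted p under 0.05 there were 7 of the 26 activating kinases and adaptors, 4 of the 15 inhibitory genes, 4 of the 19 phagocytosis genes, 3 of the 10 ITAM-coupled receptors, 2 of the 10 trafficking genes and 0 of the 14 other Fc-binding proteins, against 13.1% of all genes. With the replicate number as a block, which called 2.75% of all genes, 5 were called. Card9 (log2 difference 0.47, adjusted p = 0.0287) and Pag1, an adaptor that recruits Csk (0.75, adjusted p = 0.0477), were higher in the knockdown. Itgam (-0.60, adjusted p = 0.0111), the kinase Fyn (-1.49, adjusted p = 0.0424) and the adaptor Dok1 (-0.74, adjusted p = 0.0413) were lower, and Fyn and Dok1 are named after their values were seen. Syk differed by 0.12 (limma adjusted p = 0.759) and Inpp5d by 0.23 (limma adjusted p = 0.614).

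Between KD LPS and WT unstimulated cells Syk (1.09) and Lcp2 (1.06) were higher and Inpp5d (-0.94) lower, each called by limma (adjusted p = 0.00319, 0.000726 and 0.0103). Lat2, an adaptor of ITAM receptors, had a difference of -2.09 in that comparison (SE 0.31, limma adjusted p = 0.00491). These values share the unstimulated arrays with the comparison in wild-type cells.

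**Figure D4:**
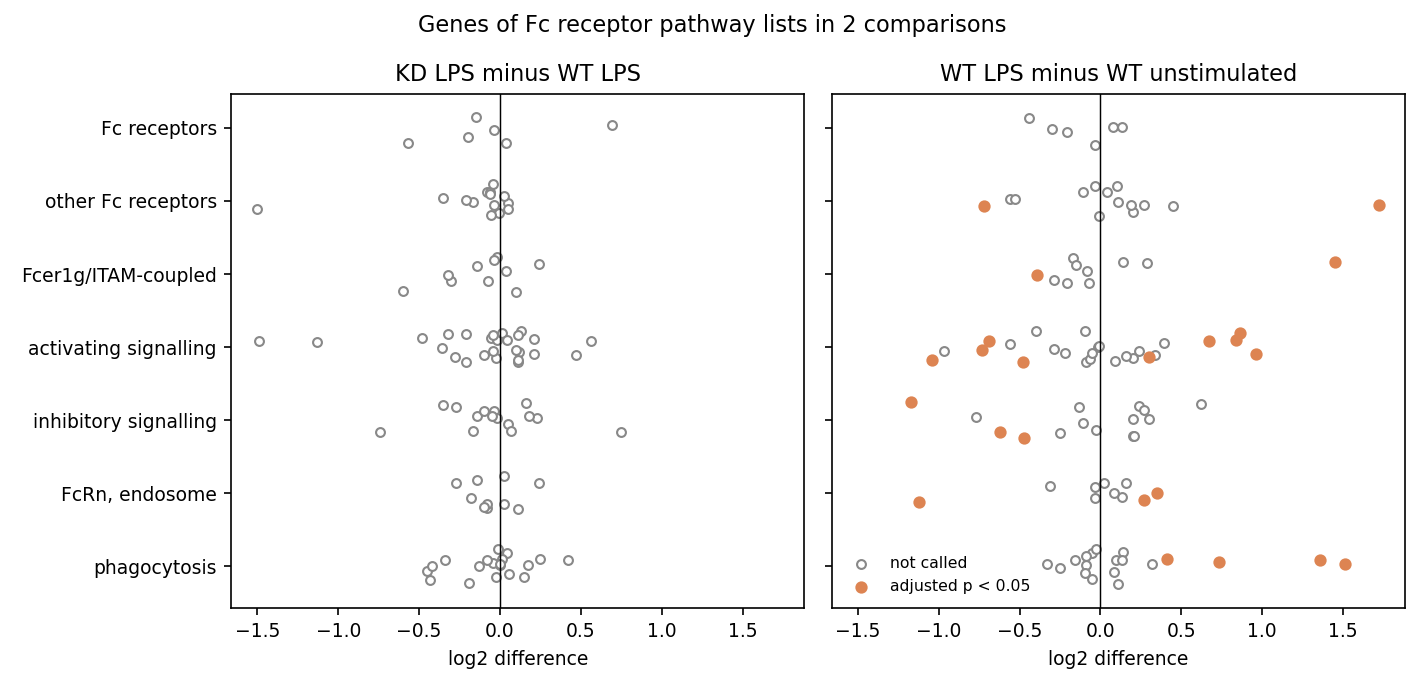
Log2 differences (horizontal axis) of single genes in the Fc receptor list and 6 related lists, for KD LPS minus WT LPS (left) and WT LPS minus WT unstimulated (right). Filled points have an adjusted p under 0.05: none of the 7 lists has one on the left, and 6 have some on the right, 9 of them among 26 genes of activating signalling, but the Fc receptors have none. Vertical scatter within a list has no meaning.

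Markers of other cell types were read in the same fits, and in the knockdown comparison after LPS 0.762% of all genes were called, 13.1% had an unadjusted p under 0.05 and 2.75% were called with the replicate block. Over 12 dendritic cell markers the median log2 difference was -1.28, beside -0.03 over all genes, with 0 called by limma, 8 at an unadjusted p under 0.05 and 7 lower with the replicate block. Their mean log2 level was 8.78 to 10 in KD LPS cells, 10.11 to 11.06 in WT LPS cells and 9.84 to 10.99 in WT unstimulated cells. Of the defining genes, Itgax, the integrin CD11c, differed by -0.48 (limma adjusted p = 0.418). Macrophage markers had a median log2 difference of 0.02, with 3 of 12 at an unadjusted p under 0.05. Only 1 of 12 was called, Spic, which was 2.74 higher. Their mean level was 10.94 to 11.90 in KD LPS, 11.15 to 11.86 in WT LPS and 10.93 to 11.35 in WT unstimulated cells. Adgre1, the macrophage protein F4/80, differed by 0.092 (limma adjusted p = 0.793), and Cd14, the LPS co-receptor, by -0.52 (limma adjusted p = 0.594) after a rise of 2.38 in wild-type cells. The part of these markers in the values of Fcgr1, Fcgr2b and Fcgr4 was not tested.

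Mast cells, which carry Fcgr3 and Fcgr2b, are another cell type that such cultures could hold. Their 15 markers, 11 of them with means below the median of all probe sets, had mean levels of 6.59 to 6.86 in KD LPS, 7.13 to 7.40 in WT LPS and 6.84 to 7.02 in WT unstimulated cells. Their median log2 difference between KD LPS and WT LPS cells was -0.13, with 0 of 15 called. At an unadjusted p under 0.05 there were 6 of 15, against 13.1% of all genes. With the replicate block 3 were called, each lower, against 2.75% of all genes. The chains of the high-affinity IgE receptor, Fcer1a and Ms4a2, differed by -0.17 and -0.0088 (limma adjusted p = 0.441 and 0.956). Cpa3, a mast cell protease, had a mean of 5.51 in KD LPS cells, against 7.39 in WT LPS cells (log2 difference -1.88, limma adjusted p = 0.317, and 0.0164 with the replicate number as a block). Kit, the SCF receptor, differed by -1.73 (limma adjusted p = 0.0729, and 0.017 with the block). Over 12 neutrophil markers the median difference between KD LPS and WT LPS cells was -0.49, with 0 called. At an unadjusted p under 0.05 there were 3 of 12, and with the replicate block 1 was called lower. Of 11 measured B cell markers 9 lay below the median of all probe sets, as did 10 of 11 markers of NK and T cells and 5 of 6 markers of follicular dendritic cells and endothelium. Cd79a, a defining B cell gene, had means of 5.05, 5.29 and 5.19 in KD LPS, WT LPS and WT unstimulated cells, while Blnk, an adaptor shared with myeloid cells, was lower by a log2 difference of -2.08 in KD LPS than in WT LPS cells (limma adjusted p = 0.0235). The part of these markers in the Fc receptor values was not tested either.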

How the data were processed

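The values deposited by the authors are on the log2 scale, 1 per probe set and array, made with RMA, which corrects background, normalizes arrays to each other and summarises probes, per the submitters' processing notes, with no version given. Array medians were 7.217 to 7.315, and no further normalization was applied. The 21789 of 35556 probe sets that named 1 gene were given RefSeq symbols through their Entrez identifiers (21698 matched), and the probe set with the highest mean over the 9 arrays stood for a gene, which left 19938 genes.

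Group means were fitted to all 9 arrays with limma 3.58.1 in R 4.3.3 (6 residual and 2.31 prior degrees of freedom, two-sided moderated tests, Benjamini-Hochberg over all genes, calls at an adjusted p under 0.05). The code was tested on simulated data. The labels call the replicates biological but do not say that they came from separate cultures, so p-values measure the spread between these arrays, which may be partly technical. Deviations from group means correlated by 0.14 to 0.48 in all 9 array pairs of the same number (-0.41 to 0.25 in 18 other pairs), so the numbers were taken to pair arrays, and a fit with the number as a block was an alternative.

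The members, lists and alternatives were chosen with earlier results of these data known. The genes named were all measured members and, from these sets, called list genes (up to 4 per list and comparison by smallest p), Syk, Inpp5d, Tyrobp and B2m, defining markers, and the 3 genes nearest in profile to the 3 members with the widest range of group means. Fcgrt was not analysed here. The number of arrays limits the precision.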

Additional observations from a re-analysis of the deposited data

How the results depend on the processing

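With the replicate number as a block no call of an Fc receptor gene changed, but 548 genes were called between KD LPS and WT LPS cells, against 152 without it. That count was 91 with every deposited probe set tested and 33 with only the arrays of both groups. limma's array weights, which ran from 0.25 (WT LPS replicate 2) to 6.83 (WT LPS replicate 3), called 8457 genes for LPS in wild-type cells (against 2164), 4283 for the knockdown after LPS and 5037 for KD LPS against WT unstimulated cells (against 2166). Under these weights calls were added for LPS in wild-type cells at Fcgr1 (-0.64), Fcgr3 (-0.47), Fcgr4 (-0.48) and Fcer2a (0.17), for the knockdown after LPS at Fcgr2b (-0.25, adjusted p = 0.00498) and Fcgr4 (0.65, adjusted p = 0.0239), and for KD LPS against unstimulated cells at Fcgr1 (-0.87). The LPS difference of Fcgr3 was also called with dim genes left out and with an intensity trend and robust prior (-0.44 in both). Without the 3 arrays numbered 2, an alternative chosen after seeing the data, the counts were 4909, 668 and 3803, Fcgr3 was called for LPS (-0.54), and the knockdown differences after LPS of Fcgr1 (0.12) and Fcgr3 (0.032) turned sign. Fcer1g, at 0.0035 between KD LPS and WT unstimulated cells, turned sign under median centring (-0.032), repeated quantile normalization (-0.016) and array weights (-0.0017). Dim genes left out removed Fcer2a, so it has no value there. The cause of these changes was not tested.

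Leaving out 1 array at a time gave 891 to 3424 called genes for LPS in wild-type cells, 18 to 383 for the knockdown after LPS and 1054 to 2602 for KD LPS against unstimulated cells. For LPS in wild-type cells the differences ran from -0.76 to 0.077 for Fcgr1, -0.54 to -0.31 for Fcgr3 (called without WT LPS replicate 2 only) and -0.54 to 0.036 for Fcgr4, and Fcgr1 and Fcgr4 turned sign without WT LPS replicate 1. For the knockdown after LPS they ran from -0.094 to 0.0022 for Fcer2a, which turned sign without WT LPS replicate 3, and from 0.45 to 1.03 for Fcgr4. For KD LPS against WT unstimulated cells they ran from -0.65 to -0.51 for Fcgr3 (adjusted p from 0.0135 to 0.0838) and from -0.018 to 0.018 for Fcer1g, which also had -0.00031 without KD LPS replicate 1.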
